A study of Mus musculus with 8 samples.

Results

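The genes described here encode small calcium-binding proteins of the S100 family, the annexins some of them bind, the filament protein vimentin and the small LIM protein Crip1. The 10 listed genes were S100a4, S100a6, S100a10, S100a11, S100a13, Anxa1, Anxa2, Anxa5, Vim and Crip1. A gene was measured through probe sets annotated to its symbol alone, taking the brightest by mean over the 8 arrays, and 9 of the 10 were measured that way among 11189 genes tested. The only probe set of S100a11 was annotated to 3 symbols, so S100a11 is named without a value.

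Total RNA of splenocytes from male C57/BL6 mice was hybridised to Affymetrix whole-genome mouse arrays. HMGA1a transgenic mice (TG) and wild type control littermates (WT) were sampled at 2 and at 12 months of age, with 2 arrays in each of the 4 groups, labelled as biological replicates 1 and 2. According to the design text, lymphoid tumours arise in all TG mice between 8 and 12 months, so the younger age precedes and the older age follows tumour onset. The promoter that drives the transgene and the number of founder lines are not given in the sources used here, and the transgene's own level was not analysed here.

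S100 proteins are small EF-hand proteins that change shape on binding calcium and then dock onto target proteins, among them annexins, myosin and filament proteins. Annexins bind acidic membrane phospholipids when calcium rises, and S100a10 joins Anxa2 in a complex at the cell membrane. Vim forms the intermediate filaments of blood cells and other mesenchymal cells, and in lymphocytes S100a4, S100a6, S100a10, Anxa1, Anxa2, Vim and Crip1 are commonly read as genes of activated and memory cells, while macrophages and stroma express many of them too. HMGA1a, the transgene product, belongs to a family of chromatin proteins that bend DNA at stretches rich in A and T.

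Values are MAS5 probe set signals on a linear scale, and differences are those of log2(signal + 16) with the standard error (SE) of the limma fit. Array medians ran from 44.9 to 49.5. Markers of the labelled cells were bright on all arrays, with signals of 5328 to 7198 for Ptprc, the pan-leukocyte CD45 gene, 3970 to 6685 for the B cell gene Ms4a1 and 287 to 803 for the T cell gene Cd3e. The replicate number marked a shared difference. Over all genes, which are not independent replicates, the difference of replicate 2 from replicate 1 in one group correlated with that in every other group (r = 0.464 to 0.654 for the 6 pairs). Differences within each replicate number are therefore given beside the main mean differences. The replicate 1 WT array of 2 months stood apart in pancreatic enzyme markers, whose signals summed to 8079 there and to between 442 and 648 on the other 7 arrays. Where a mean difference named below for a member's brightest probe set rests on that array, it is also given without it.

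The upstream sequences of S100a4, S100a6 and Vim are shown because the signals of these 3 members were separated between TG and WT at 12 months. Each is the stretch of 250 bases before the transcript start in RefSeq (GRCm38.p6), read 5′ to 3′ on the gene's strand, at chr3:90603520-90603769 (plus strand) for S100a4, chr3:90612644-90612893 (plus strand) for S100a6 and chr2:13574061-13574310 (plus strand) for Vim. Capitals mark matches, on either strand, to any of 4 letter patterns searched. The first was TATAAA, the core of the box that positions transcription starts. The second was CCAAT, which the factor NF-Y binds. The others were GGGCGG, a site of Sp1 factors, and TGANTCA, the site of AP-1, where N is any base.
S100a4: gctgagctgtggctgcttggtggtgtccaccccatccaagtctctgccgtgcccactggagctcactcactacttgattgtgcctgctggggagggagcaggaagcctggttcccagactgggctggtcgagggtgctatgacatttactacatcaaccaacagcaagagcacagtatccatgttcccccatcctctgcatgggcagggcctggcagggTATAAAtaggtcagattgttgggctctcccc
S100a6: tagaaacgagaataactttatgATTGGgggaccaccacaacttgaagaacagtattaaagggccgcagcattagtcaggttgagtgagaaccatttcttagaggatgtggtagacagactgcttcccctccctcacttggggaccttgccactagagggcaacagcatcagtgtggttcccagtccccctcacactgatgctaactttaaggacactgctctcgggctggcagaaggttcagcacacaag
Vim: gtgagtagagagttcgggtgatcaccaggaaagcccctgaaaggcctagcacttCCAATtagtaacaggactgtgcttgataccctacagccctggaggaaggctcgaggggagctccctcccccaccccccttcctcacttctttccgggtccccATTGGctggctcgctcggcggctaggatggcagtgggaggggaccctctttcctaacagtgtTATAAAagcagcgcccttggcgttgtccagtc

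TATAAA began 31 bases before the start of S100a4 and 32 bases before that of Vim, and the S100a6 window held none of this pattern. It was also found at 32 bases in Anxa1 and at 17 bases in Anxa2, so that 4 of the 8 members with an upstream sequence held it, against 12.4% of the 32851 promoters in the table. CCAAT was found in 2 of the 8 (Vim and S100a6; 33.8% of all promoters), GGGCGG in 2 (Anxa2 and Crip1; 32.7%) and TGANTCA in 1 (Anxa2; 6.75%). The share of A and T bases was 42.8% for S100a4, 50% for S100a6 and 41.6% for Vim, against a median of 47.6% over all promoters. These are letter matches in a fixed window, and binding of any factor was not measured. S100a4 and S100a6 are near neighbours on chromosome 3, with S100a5 as the 1 coding gene between them.

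TG and WT spleens were first compared at 12 months, the age at which tumours are established. S100a4 and S100a6 had lower signals in TG than in WT spleens and Vim had a higher signal, each in both replicates, while the other 6 measured members had overlapping groups. None of the 9 passed the test (0 of 9, smallest adjusted p = 0.671, limma with Benjamini-Hochberg adjustment), against 0% of all genes tested. By sign alone 2 members were higher and 7 lower in TG, with a median difference of -0.02 against -0.03 over all genes. Groups were apart for 1 member on the higher side and 2 on the lower side, where 14.3% of all genes were apart as higher and 19.9% as lower. A bulk spleen array cannot tell fewer cells of a type from less RNA per cell.

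**Figure D1:**
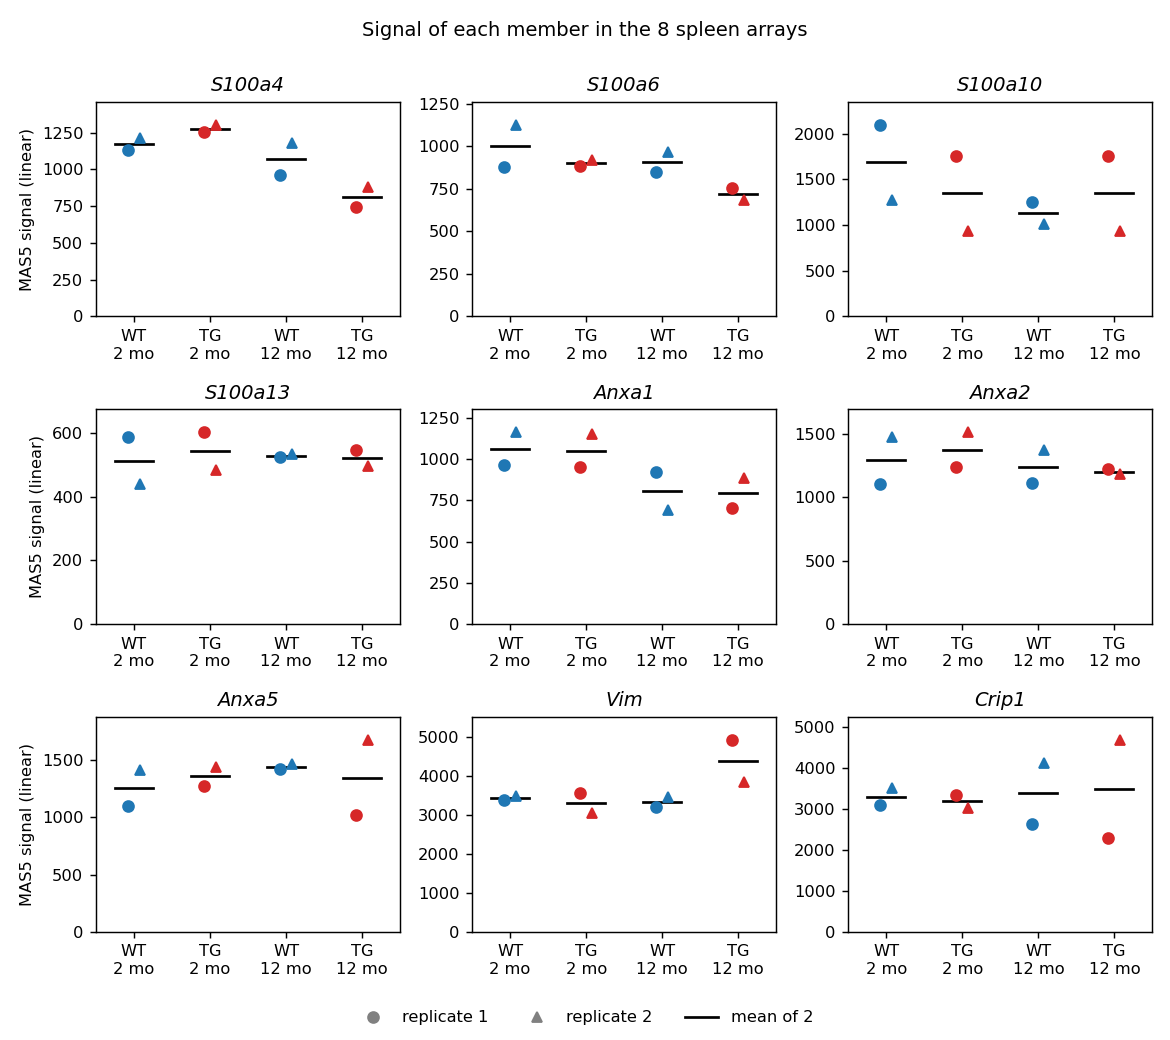
Signal of the 9 measured members (linear MAS5 units, axis from 0) in each group, with circles for replicate 1, triangles for replicate 2, blue for WT, red for TG and a bar for the mean of 2 arrays. The TG arrays at 12 months held the 2 lowest signals for S100a4 (743 and 880) and S100a6 (756 and 683) and the 2 highest for Vim (4913 and 3830).

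S100a4 encodes a binder of non-muscle myosin known from motile and metastatic cells. Its signals at 12 months were 743 and 880 in TG (replicates 1 and 2) and 960 and 1178 in WT. At 2 months they were 1251 and 1302 in TG and 1134 and 1214 in WT. The 12-month TG arrays were thus the lowest 2 of the 8, and the 2-month TG arrays were the highest 2. The TG-WT difference at 12 months was -0.39 ± 0.18 (SE) on the log2 scale, with -0.36 within replicate 1 and -0.41 within replicate 2 (limma adjusted p = 0.671). It lay above 12.8% of all genes' differences.

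S100a6 encodes calcyclin, named for its rise in growth-stimulated cells. At 12 months its signals were 756 and 683 in TG and 848 and 969 in WT, and at 2 months 883 and 920 in TG and 881 and 1127 in WT. Here too the 12-month TG arrays were the lowest of all, whereas the other 3 groups overlapped each other. The 12-month difference was -0.33 ± 0.19, at -0.16 within replicate 1 and -0.49 within replicate 2 (limma adjusted p = 0.729).

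Vim ran the other way. Its signals at 12 months were 4913 and 3830 in TG and 3192 and 3446 in WT, and at 2 months 3570 and 3056 in TG and 3380 and 3476 in WT. Both 12-month TG arrays exceeded the other 6, and replicate 1 stood furthest above them. The difference was 0.39 ± 0.20, with 0.62 within replicate 1 and 0.15 within replicate 2 (limma adjusted p = 0.699), and 91.4% of all genes had a lower difference. A pair of further Vim probe sets gave smaller differences of the same sign, 0.21 (0.33 and 0.09 within replicates 1 and 2) and 0.27 (0.42 and 0.11). Without the replicate 1 TG array of 12 months the difference of the brightest probe set was 0.21.

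With the replicate number as a block, 3 members (S100a4, S100a6 and Vim) had an unadjusted p under 0.05 at 12 months, where 19.9% of all genes did, and without it 0 members did, where 7.73% of all genes did. None passed after adjustment with the replicate block either (adjusted p = 0.128, 0.234 and 0.184). Over all settings tried the adjusted p lay between 0.128 and 0.933 for S100a4, 0.234 and 0.933 for S100a6 and 0.184 and 0.954 for Vim. RNA quality also differed between these groups, as seen in the 3′ over 5′ control ratio. At 12 months TG arrays had the lower ratio in both replicates, at 0.843 against 1.25 (replicate 1) and 1.21 against 1.73 (replicate 2) for Gapdh, and at 1.20 against 1.48 and 1.10 against 1.31 for Actb. Its part in the differences was not tested.

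**Figure D2:**
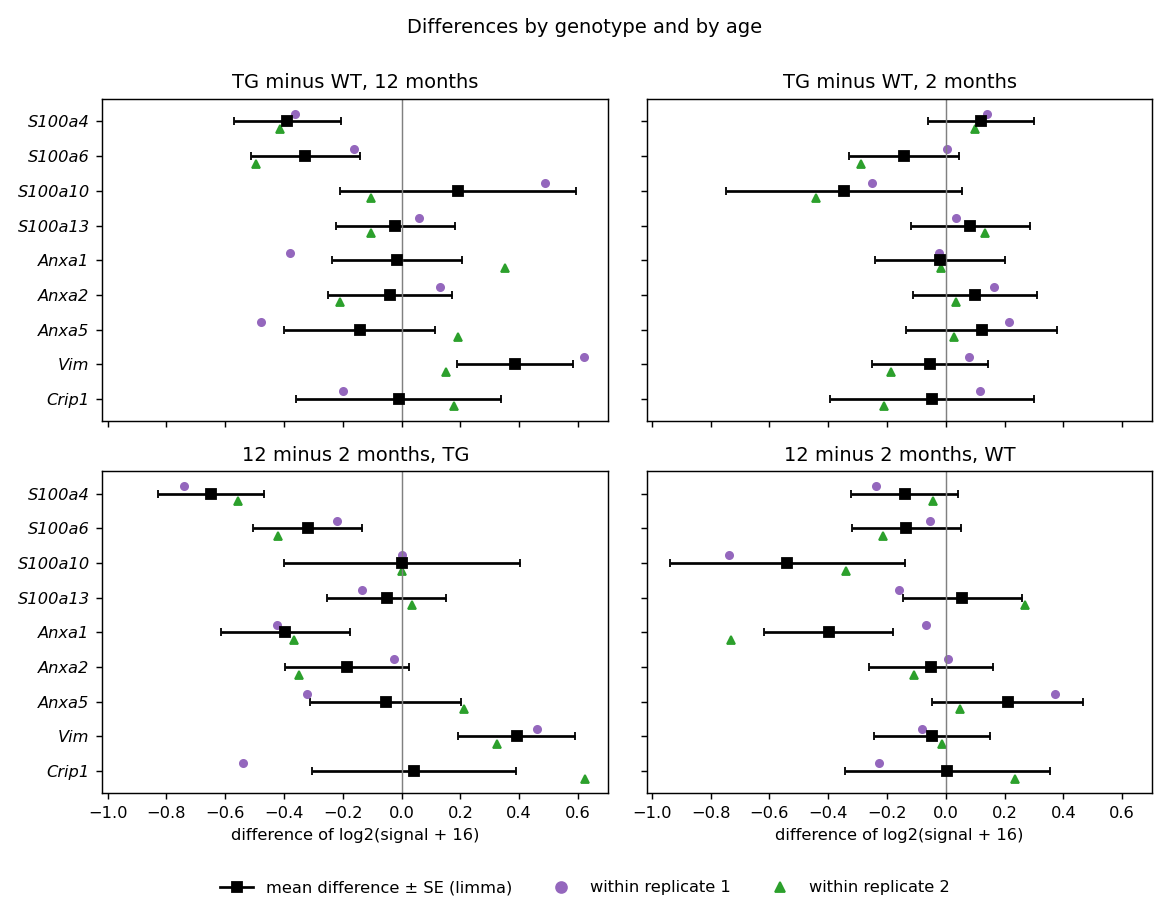
Difference of log2(signal + 16) for each measured member in 4 comparisons, with squares and bars for the mean difference ± SE from limma, circles for the difference within replicate 1 and triangles within replicate 2. At 12 months S100a4 lies at -0.36 and -0.41 in the 2 replicates, whereas the circle and triangle of Anxa1 (-0.38 and 0.35) and Anxa5 (-0.48 and 0.19) fall on opposite sides of 0.

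The other S100 members showed no separation by genotype at 12 months. S100a10, the annexin partner that does not need calcium, had signals of 1761 and 937 in TG and 1250 and 1008 in WT at 12 months, and of 1760 and 937 in TG and 2097 and 1279 in WT at 2 months. On this probe set replicate 2 was lower than replicate 1 in each of the 4 groups, by a mean of -0.70 on the log2 scale. The 12-month difference was 0.19 ± 0.40, at 0.49 and -0.10 within replicates 1 and 2. A second S100a10 probe set had signals of 1282 and 1107 in TG and 1020 and 1167 in WT at 12 months, and a difference of 0.13 (0.33 and -0.08), and another gave 0.16 (0.21 and 0.11). S100a13, which takes part in the release of growth factors without a signal peptide, had signals of 547 and 496 in TG and 525 and 534 in WT, and a difference of -0.02 ± 0.20.

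The measured annexin members had overlapping groups at 12 months, and each had TG-WT differences of opposite sign within replicates 1 and 2. Anxa1, a glucocorticoid-induced brake on inflammation, had signals of 706 and 889 in TG and 923 and 694 in WT, and its difference of -0.01 ± 0.22 was the mean of -0.38 within replicate 1 and 0.35 within replicate 2. Anxa2, the membrane partner of S100a10, had 1219 and 1183 in TG and 1113 and 1370 in WT (difference -0.04 ± 0.21). Anxa5, whose protein binds phosphatidylserine on dying cells, had 1016 and 1673 in TG and 1421 and 1462 in WT, so the TG arrays enclosed both WT arrays. Further probe sets of Anxa1 (1) and Anxa2 (2) lay under the filter on dim signals and were not used. The Anxa5 difference was -0.14 ± 0.26, at -0.48 within replicate 1 and 0.19 within replicate 2.

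Crip1, a small zinc-binding LIM protein of lymphoid and gut cells, spread more between replicates than between genotypes at 12 months. Its signals were 2294 and 4678 in TG and 2634 and 4132 in WT, with replicate 2 the higher in both genotypes by 1.02 and 0.65 on the log2 scale. At 2 months the signals were 3342 and 3028 in TG and 3083 and 3506 in WT. The 12-month difference of -0.01 ± 0.35 had opposite signs within the replicates (-0.20 and 0.18).

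**Figure D3:**
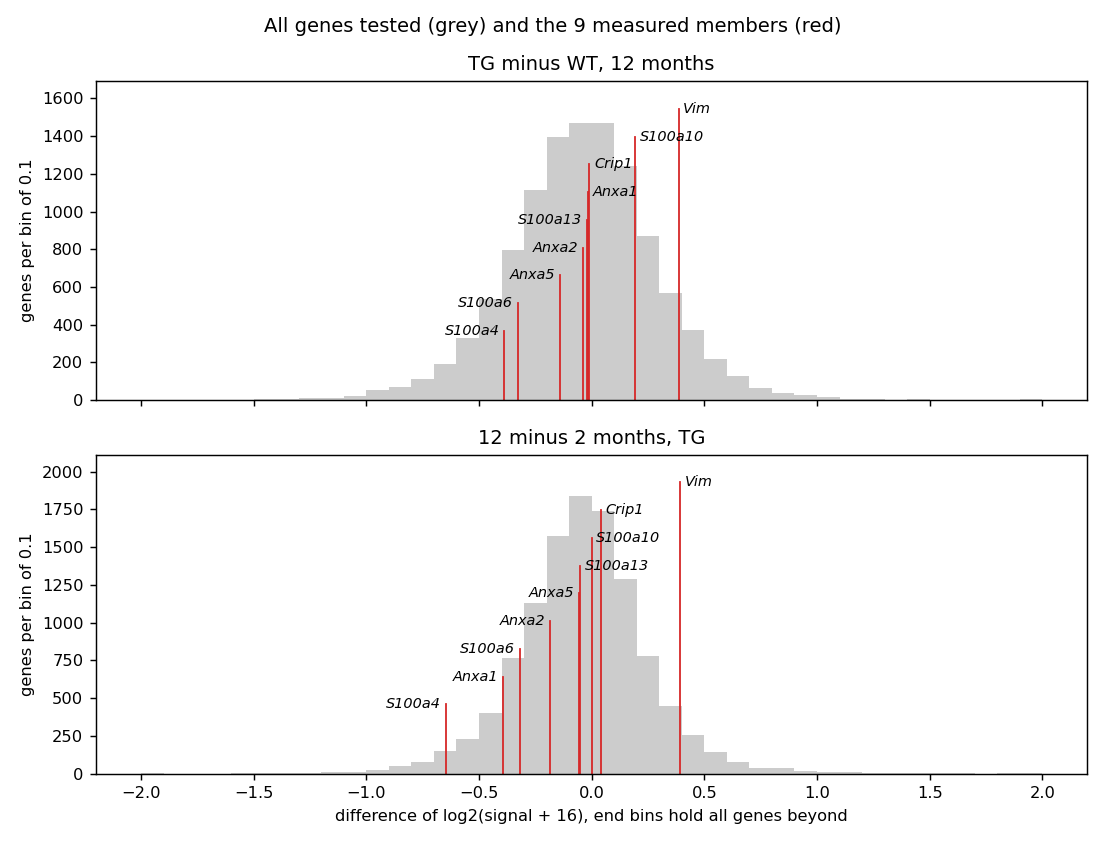
Histogram of the differences of log2(signal + 16) of all 11189 genes tested (grey, genes per bin of 0.1 log2) with the 9 measured members as red lines, whose heights only separate the names. S100a4 stands at -0.39 for TG against WT at 12 months (upper plot) and at -0.65 for 12 against 2 months in TG (lower plot), and Vim at 0.39 in both.

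At 2 months, before tumours, the groups overlapped for 8 of the 9 members. No member passed the test (0 of 9; 0% of all genes), and 0 of 9 had an unadjusted p under 0.05, where 0.393% of all genes did (1.69% with the replicate block, again with 0 members). By sign 4 members were higher and 5 lower in TG, with a median of -0.02 against 0.01 over all genes. Without the replicate 1 WT array of 2 months 3 were higher and 6 lower, with a median of -0.07. S100a4 was the 1 member with groups apart, on the higher side, where 10.1% of all genes were (and 7.83% on the lower side), with a difference of 0.12 ± 0.18. S100a10 had the largest difference in size, -0.35 ± 0.40, below which 2.60% of all genes lay, while its other probe sets gave -0.05 and 0.00. Without the replicate 1 WT array of 2 months that of S100a10 became 0.01 ± 0.47, that of S100a6 went from -0.14 to -0.32 that of S100a4 from 0.12 to 0.07 and that of Anxa1 from -0.02 to -0.15, and 0 of 9 members passed. Anxa1, with signals of 952 and 1150 in TG and 967 and 1162 in WT, differed by -0.02 ± 0.22. With SEs of 0.18 to 0.40 over the members, a p that misses the threshold does not show that genotypes were alike.

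The genotype difference at 12 months was then set against that at 2 months as an interaction. None of the members passed (0 of 9; 0% of all genes), and 0 had an unadjusted p under 0.05, where 1.9% of all genes did. With the replicate block 2 members did (S100a4 and S100a10; 8.14% of all genes), with adjusted p = 0.598 and 0.604. S100a4 had a difference of differences of -0.51 ± 0.26, at -0.50 and -0.51 within replicates 1 and 2 (limma adjusted p = 1.00). That of Vim was 0.44 ± 0.28 (0.54 and 0.34), and that of S100a10 was 0.54 ± 0.57 (0.74 and 0.34). Without the replicate 1 WT array of 2 months these were -0.46 for S100a4, 0.46 for Vim and 0.19 for S100a10. That of S100a6 was -0.19 ± 0.26, and -0.01 without that array. Its difference at 2 months, -0.14 ± 0.19, was 0.00 within replicate 1 and -0.29 within replicate 2, with overlapping groups.

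The largest difference of any member over the 7 comparisons was that of S100a4 with age in TG mice. Its signals went from 1251 and 1302 at 2 months to 743 and 880 at 12 months, a difference of -0.65 ± 0.18, at -0.74 and -0.56 within replicates 1 and 2 (limma adjusted p = 0.788). Adjusted p lay between 0.0863, with the replicate block, and 1.00 over the settings tried. S100a4 was the 1 member of 9 with an unadjusted p under 0.05 in this comparison, where 4.72% of all genes had one. With the replicate block 3 members did (S100a4, S100a6 and Vim; 13.4% of all genes). The comparison shares both 12-month TG arrays with that of TG against WT at 12 months. The control ratios were lower at 12 than at 2 months in TG too, at 0.843 against 1.07 and 1.21 against 1.48 for Gapdh and at 1.20 against 1.21 and 1.10 against 1.14 for Actb, and their part was not tested.

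After S100a4 came Anxa1 at -0.40 ± 0.22, S100a6 at -0.32 ± 0.19, Anxa2 at -0.19 ± 0.21 and, in the other direction, Vim at 0.39 ± 0.20. Groups were apart for 4 members on the lower side (S100a4, S100a6, Anxa1 and Anxa2; 17.4% of all genes) and for Vim on the higher side (10.3% of all genes). None passed the test (0 of 9), as 0.00894% of all genes did, which is 1 gene. All 3 Vim probe sets were higher at 12 than at 2 months in TG within both replicates, by 0.46 and 0.32, 0.45 and 0.25, and 0.47 and 0.28. In WT the same probe sets were lower by sign within both replicates, between -0.01 and -0.16.

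**Figure D4:**
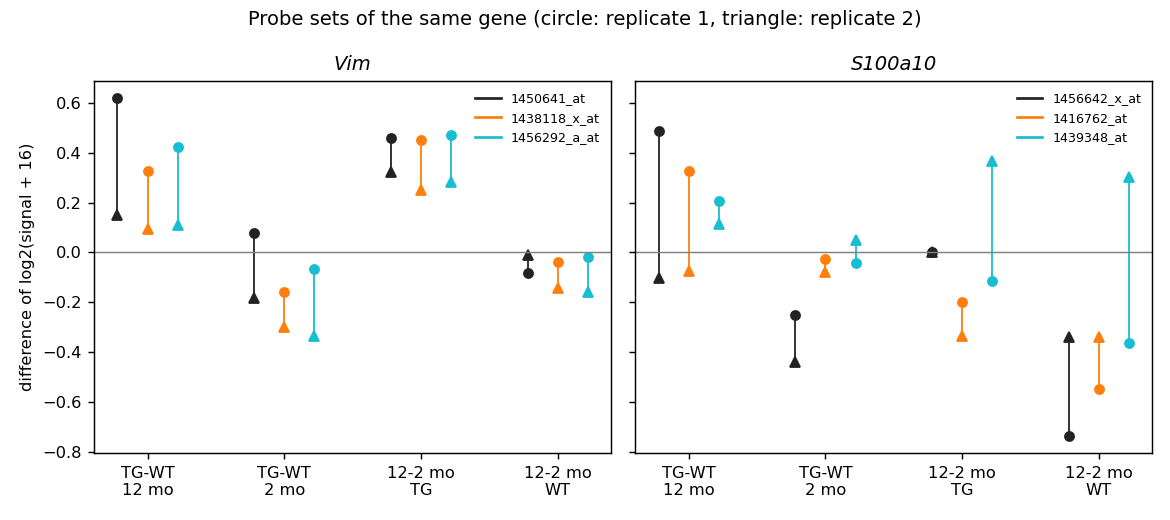
Differences of log2(signal + 16) for the 3 probe sets of Vim (left) and of S100a10 (right) in 4 comparisons, with circles for replicate 1, triangles for replicate 2 and a line joining them, colour standing for the probe set. The Vim probe sets share the sign of their difference at 12 months and with age in TG. Those of S100a10 share the sign of their mean difference at 12 months (0.19, 0.13 and 0.16, brightest first). For age in TG they differ, at 0.00 on the brightest, -0.27 on the next and 0.13 on the dimmest.

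Ageing in WT mice left S100a4, S100a6 and Vim with overlapping groups, at -0.14 ± 0.18, -0.13 ± 0.19 and -0.05 ± 0.20 (-0.19, -0.31 and -0.07 without the replicate 1 WT array of 2 months). S100a10 and Anxa1 were lower at 12 months with groups apart (10.9% of all genes on that side) and Anxa5 higher with groups apart (12.7%). The S100a10 signals were 1250 and 1008 at 12 months and 2097 and 1279 at 2 months, a difference of -0.54 ± 0.40, and the second probe set gave -0.44. The remaining probe set gave -0.03, with opposite signs within the replicates (-0.37 and 0.30). That of Anxa1 was -0.40 ± 0.22, made up of -0.07 within replicate 1 and -0.73 within replicate 2, and that of Anxa5 was 0.21 ± 0.26. Without the replicate 1 WT array of 2 months they became -0.18 for S100a10, -0.53 for Anxa1 and 0.03 for Anxa5. None of the 9 passed the test (0% of all genes), and 0 had an unadjusted p under 0.05, where 1.53% of all genes did. With the replicate block 1 member did (S100a10, adjusted p = 0.945; 5.17% of all genes).

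Over both genotypes together, Anxa1 was the 1 member whose 12-month arrays all lay on one side of the 2-month arrays. Its 12-month signals ran from 694 to 923 and its 2-month signals from 952 to 1162, and 1.56% of all genes were apart in that direction (1.3% in the other). The mean difference was -0.40 ± 0.16 in Anxa1 and -0.39 ± 0.13 in S100a4, and 2.50% and 2.58% of all genes lay below them. These 2 members had an unadjusted p under 0.05 without the block (3.55% of all genes), and 4 of 9 with it (9.56%). None passed the test (adjusted p = 1.00 for both; 0.00894% of all genes passed). Without the replicate 1 WT array of 2 months they were -0.46 in Anxa1 and -0.42 in S100a4. Averaged over both ages, TG against WT gave 0 of 9 members past the test (0% of all genes) and 0 with an unadjusted p under 0.05 (4.42% of all genes), with S100a6 lowest at -0.23 ± 0.13 (-0.32 without that array). With the replicate block S100a6 was the 1 member with an unadjusted p under 0.05 (adjusted p = 0.339; 13.9% of all genes).

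The members did not run together across the 8 arrays. Of their 36 pairs 18 had a Pearson r above 0, with a median of 0.01. The highest was 0.75, between S100a4 and S100a6, and the lowest was -0.88, between S100a10 and Anxa5. On the probe sets used, these 2 genes took opposite sides of the replicate difference. The next S100a10 probe set showed little of it. In 2-month WT and TG and 12-month WT and TG its signals were 1499, 1473, 1020 and 1282 (replicate 1). In replicate 2 they were 1480, 1400, 1167 and 1107. Vim and S100a4 had r = -0.78. The Vim probe sets not used were lower in replicate 2 than in replicate 1 in every group, unlike the one used. Each r, here and for the genes below, rests on the brightest probe set of a member. The r values describe 8 arrays that share the replicate difference, and no test was made. The mean profile of the members was led by S100a4 (r = 0.89) and S100a6 (r = 0.74), while Vim had r = -0.49 with it.

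Among genes outside the list, those most like the mean profile over the 8 arrays were Emid1 (r = 0.97), Ifi35, Cdc42se1, 5830428M24Rik, Hsd3b7, Gipc1, Rgs10 and Lst1 (r = 0.95). For S100a4 the most alike were Cbr3 (r = 0.98) and Cd209d, whose signals at 12 months were 15.8 and 40.8 in TG and 53.1 and 72.8 in WT. Dok4 and Clu were the most like S100a6 and Ndufv3 and Nit2 the most like Vim (all r = 0.97). The pairs nearest to the remaining members were Zdhhc5 and Wipf1 for S100a10, Mtfr1l and Sclt1 for S100a13, Ccdc80 and Slfn4 for Anxa1, Aatf and Selplg for Anxa2, Zfp397 and Axl for Anxa5, and Ufsp1 and Stoml1 for Crip1, with r from 0.93 to 0.98.

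Related genes were read from lists of families and partners, in which no gene passed the test at 12 months without the block. Of the list of other S100 genes 5 of 13 were measured, 2 higher and 3 lower in TG. The list also holds S100pbp, a gene for an S100-binding protein and not an S100 gene itself. It was among the lower ones, at -0.60 ± 0.22. S100a1, a calcium sensor best known from muscle, had signals of 146 and 173 in TG and 279 and 237 in WT at 12 months, a difference of -0.64 ± 0.19 (limma adjusted p = 0.586). S100a8 and S100a9, the calprotectin genes of neutrophils, split by replicate: S100a8 had 3525 and 7598 in TG and 3653 and 2303 in WT, at -0.05 within replicate 1 and 1.72 within replicate 2. Of the other annexins 5 of 9 were measured, all 5 lower by sign in TG at 12 months (median -0.13, against -0.03 over all genes). All 5 were higher at 2 months (median 0.12, at 0.18 within replicate 1 and 0.12 within replicate 2). The largest 12-month difference among them was that of Anxa9, -0.45 ± 0.27, on dim signals of 41.1 and 55.5 in TG and 58.0 and 87.7 in WT. It was followed by Anxa3 at -0.24 ± 0.18. Their signs at 2 and 12 months come from separate arrays.

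The list of known partners and receptors of the members included genes with larger differences than the members themselves. Lgals1, a galectin gene often listed beside S100 genes, is in that list without a claim that it binds a member. Its signals at 12 months were 3771 and 2780 in TG and 1231 and 806 in WT, a difference of 1.68 ± 0.30. Of the 18 alternatives run it passed the test in 1, the replicate block (adjusted p = 0.00286), and had an adjusted p of 0.477 in the fit without the block and of 0.167 to 0.933 over the rest. Cacybp, the calcyclin-binding protein that docks S100a6, had signals of 1223 and 1073 in TG and 776 and 751 in WT, a difference of 0.58 ± 0.17 (limma adjusted p = 0.586). Sugt1, a co-chaperone that also binds S100a6, had 719 and 488 in TG and 411 and 345 in WT, a difference of 0.63 ± 0.22. In both genes the TG arrays lay above the WT arrays, the opposite side to S100a6. Dysf, a membrane repair protein that works with Anxa1 and Anxa2, had 46.8 and 54.4 in TG and 85.9 and 90.5 in WT, a difference of -0.65 ± 0.26.

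Of the intermediate filament genes 9 of 19 were measured, 6 higher and 3 lower in TG at 12 months. Lmnb1, the nuclear lamin B1 gene, had signals of 738 and 519 in TG and 318 and 430 in WT (difference 0.72 ± 0.31), and Nefh, a neurofilament gene, had dim signals of 94.1 and 54.7 against 38.1 and 27.4, both WT values being under the filter level of 45.3. Dst, a linker of filaments to other structures, was lower at 100 and 155 against 274 and 225 (-0.91 ± 0.24), as was Synm at -0.70 ± 0.26. All 12 actin and filament regulators were measured, 9 higher and 3 lower. The integrin gene Itgb1 had 1254 and 1051 in TG and 902 and 710 in WT (0.51 ± 0.19), and the actin crosslinker Flna had 1541 and 1622 against 1933 and 2084 (-0.34 ± 0.17). Of the LIM genes related to Crip1, 5 of 7 were measured and all 5 were lower by sign, with a median of -0.38 that was -0.63 within replicate 1 and -0.13 within replicate 2. Crip2 had 409 and 866 in TG and 842 and 973 in WT.

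Marker lists of other cells were compared between TG and WT spleens at 12 months. Summed signals were apart for some lists and overlapped for others, and each sum is led by the bright genes of its list. No gene of these lists passed the test without the block. With the replicate block the B cell genes Cr2 and Fcer2a passed (limma adjusted p = 0.0255 each). So did Gzma of the NK cell list, at -2.17 ± 0.27 (limma adjusted p = 0.0381 with the block). By sign, 5059 of all 11189 genes were higher and 6130 lower in TG. The part of these lists in the members' differences was not tested. Effector and memory lymphocyte markers had a summed signal of 8869 to 13495 in TG and 6701 to 6733 in WT, with 10 of 11 measured genes higher. Macrophage and monocyte markers summed to 25677 to 29240 in TG and 33727 to 34601 in WT, with 8 of 13 lower, and dendritic cell markers to 2948 to 3007 against 4203 to 4644, with 7 of 7 lower. Endothelial markers summed to 1254 to 1863 in TG and 2535 to 2568 in WT, with 6 of 6 lower. Proliferation markers summed to 11286 to 12868 in TG and 8485 to 8509 in WT, with 7 of 7 higher. Median differences within replicates 1 and 2 were 0.93 and 0.25 for the effector and memory list. They were -0.64 and -0.06 for macrophage and monocyte, -0.49 and -0.49 for dendritic cell, -0.87 and -0.31 for endothelial and 0.68 and 0.53 for proliferation markers.

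T cell markers summed to 5449 to 10299 in TG and 4357 to 5386 in WT, with a median difference of 1.00 within replicate 1 and -0.12 within replicate 2, and mature B cell markers to 15194 to 27190 in TG and 22209 to 29182 in WT, with 9 of 10 lower, among them Cr2 at -1.56 ± 0.20 and Fcer2a at -1.48 ± 0.33 with groups apart. Fibroblast and stroma markers summed to 6406 to 7228 in TG and 5722 to 5848 in WT, with 6 of 9 higher, and neutrophil markers to 9615 to 21744 against 5939 to 10488. Plasma cell markers summed to 20628 to 26414 in TG and 18685 to 25768 in WT, naive and central T cell markers to 1177 to 2675 against 1632 to 1962, B-1 and age-associated B cell markers to 2705 to 2735 against 2193 to 2623, NK cell markers to 1459 to 3186 against 1618 to 1623, erythroid markers to 7840 to 11138 against 9775 to 10437 and pancreatic markers to 512 to 584 against 485 to 648. Megakaryocyte and platelet markers, 5 of 5 lower by sign, summed to 3034 to 5467 in TG and 4602 to 5008 in WT. In the 2-month TG group, set beside the 12-month TG group for age, effector and memory markers summed to 7349 to 7880, macrophage and monocyte markers to 29979 to 31288 and dendritic cell markers to 4017 to 4282.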

How the data were processed

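The 8 arrays hold 4 groups of 2. The deposited file gives 1 linear intensity per probe set and array, made with GCOS 1.4 and MAS5 per the submitters' processing notes. In the deposited values every array had a trimmed mean of 150.001 once a share of 0.02 was cut from each end. Of 45101 deposited probe sets, 34945 had 1 gene symbol in the annotation given. After log2(signal + 16), probe sets under the median (a signal of 45.3) were dropped, and the brightest probe set with 1 symbol stood for each of 11189 genes. The fit was limma 3.58.1 in R 4.3.3 (lmFit, eBayes with trend) with 4 group means and 4 residual degrees of freedom, 2-sided, adjusted by Benjamini-Hochberg over all genes at 0.05. The labels call the arrays biological replicates, and replicate numbers paired them by the r values in the text, so a replicate block was the paired alternative. In simulated data for TG against WT at 12 months, 21 of 100 genes changed by 1 log2 unit were recovered. The self-test ran on 11189 genes and also recovered 71 of 100 changed by 2. MAS5 signals of different probe sets were compared to pick the brightest of a gene. They were also summed over marker lists, where bright probe sets weigh most. Otherwise they were not set against each other. Probe sets of gene families can bind related transcripts. The members, the lists of related genes and the marker lists were chosen with earlier results of these data known. Every member was named. From each related list the rule took up to 4 genes with the largest moderated t at 12 months and with age, and the most alike genes were 8 for the mean profile and 2 for each member. Promoter sequences are RefSeq's (GRCm38.p6), and 8 of the 9 measured members matched an entry.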

Additional observations from a re-analysis of the deposited data

How the results depend on the processing

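Of 25 member differences followed over 18 alternative settings, 16 kept their sign throughout, and no member passed the test under any setting; the smallest adjusted p (limma) was 0.0863 with the replicate block and 0.325 without it. The 25 were those of all measured members at 12 months and of picked members in the other comparisons. Some settings cannot move a difference, such as the fit without an intensity trend or a left-out array of a group not compared. The number of kept signs is therefore no measure of stability. The replicate block, the paired alternative, also leaves every difference as it was, since each group holds 1 array of each replicate number. It changes only the SE and p. With it the genes past the test over the whole array rose from 0 to 5 at 12 months. They rose from 1 to 21 with age in TG and from 1 to 27 with age over both genotypes. Scaling arrays to a common median turned 3 near-zero differences at 12 months positive, S100a13 to 0.014, Anxa1 to 0.021 and Crip1 to 0.027. Leaving out each array in turn moved the 12-month difference of S100a10 between -0.26 and 0.64, S100a13 between -0.090 and 0.046, Anxa1 between -0.22 and 0.19, Anxa2 between -0.19 and 0.11, Anxa5 between -0.50 and 0.21 and Crip1 between -0.52 and 0.50. At 2 months the same moved S100a6 between -0.32 and 0.032, S100a10 between -0.80 and 0.10 and Vim between -0.16 and 0.058. Leaving out an array leaves its group with 1, assumed to vary like the other groups. The 12-month differences of S100a4, S100a6 and Vim kept their sign, from -0.53 to -0.24, from -0.42 to -0.23 and from 0.21 to 0.56. For left-out arrays this was fixed in advance, since groups that do not overlap keep their sign when 1 array is dropped. With 2 arrays a group, differences of the size of the SEs could not be resolved.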
